A study of Mus musculus with 4 samples.

Results

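The genes described here are 10 markers of the 2-cell-like state of mouse embryonic stem (ES) cells, compared between Smg6-deficient and wild-type cultures by RNA-seq. They are Zscan4c, Zscan4d and Zscan4f of the Zscan4 family, Tcstv1 and Tcstv3 of the Tcstv family, Tdpoz1, Tdpoz3 and Tdpoz4 of the Tdpoz family, and the single genes Zfp352 and Tmem92. They were chosen by symbol, and each of the 10 symbols matched 1 of the 37224 Ensembl gene identifiers counted. The series holds 2 libraries of Smg6-deficient ES cells and 2 of wild-type ES cells, called normal or control elsewhere in the labels. The SMG6 protein cuts mRNA in nonsense-mediated decay (NMD), which removes transcripts that carry a premature stop codon. The labels name neither the ES cell line, nor how Smg6 was made deficient, nor the number of clones. They also do not say whether the libraries of a genotype came from separate cultures, so the spread behind each p-value may be purely technical.

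Cultures of mouse ES cells contain a small, changing minority of cells that switch on transcripts otherwise found in the embryo at the 2-cell stage, when its own genome is first transcribed. In these cells the transcription factor Dux activates a set of genes, many in tandem families of near-identical copies, together with endogenous MERVL retroviruses. The state is transient, so that the level of its markers in a bulk culture reflects both how many cells are in it and how much RNA each makes. In bulk RNA, fewer cells of a type and less RNA per cell cannot be told apart.

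Gene counts summed to 155391181 and 137937779 in the Smg6-deficient libraries and to 137643993 and 130888768 in the wild-type libraries. Smg6 was counted at 87.6 and 86.2 CPM (counts scaled to library size) in Smg6-deficient cells, against 95.7 and 105 CPM in wild-type cells. Its difference did not pass the threshold (log2 fold change -0.21 with SE 0.083, edgeR adjusted p = 0.089). It passed with library size alone as the scaling (edgeR adjusted p = 0.044), with TMM on autosomal genes (0.049) and when wild-type replicate 1 was left out (0.015). Because a gene-level count can miss the loss of single exons, Smg6 does not check the labels. Pou5f1 and Sox2, which define pluripotent cells, were present at 398 to 936 CPM in every library. The 10 markers, by contrast, reached at most 6.66 CPM in any library.

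Several markers are copies that 50-base reads can hardly separate. The coding sequences of Zscan4c and Zscan4f differ at 6 of 1521 bases and those of Zscan4c and Zscan4d at 35, an identity of 99.6% and 97.7%. Tcstv1 and Tcstv3 are 94.5% identical over 510 aligned bases, and Tdpoz1 and Tdpoz3 88.1% over 1098. Tdpoz4 is 76.9% identical to Tdpoz1 and 76.5% to Tdpoz3. The 50-base stretch of the coding sequence that differs most among the copies shows how much a read has to go by. Capitals mark positions at which the copies of a family differ, and the sequences are read from GENCODE M21 transcripts (GRCm38), 5′ to 3′ on the coding strand. For Zscan4 the stretch has 6 such positions in 50 bases, at chr7:11009517-11009566 (plus strand) in Zscan4c, chr7:11162351-11162400 (minus) in Zscan4d and chr7:11401710-11401759 (plus) in Zscan4f.
Zscan4c: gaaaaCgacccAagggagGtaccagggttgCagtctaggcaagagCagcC
Zscan4d: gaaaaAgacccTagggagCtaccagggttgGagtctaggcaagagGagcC
Zscan4f: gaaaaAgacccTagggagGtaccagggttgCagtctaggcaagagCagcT
For Tcstv the stretch has 8 such positions, at chr13:119893638-119893687 (minus) in Tcstv1 and chr13:120317974-120318023 (plus) in Tcstv3.
Tcstv1: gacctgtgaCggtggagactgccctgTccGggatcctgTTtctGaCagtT
Tcstv3: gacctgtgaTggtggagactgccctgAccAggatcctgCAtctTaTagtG
For Tdpoz it has 33, at chr3:93671122-93671171 (minus) in Tdpoz1, chr3:93826324-93826373 (plus) in Tdpoz3 and chr3:93796702-93796751 (plus) in Tdpoz4.
Tdpoz1: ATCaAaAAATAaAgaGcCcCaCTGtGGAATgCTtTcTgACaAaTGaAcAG
Tdpoz3: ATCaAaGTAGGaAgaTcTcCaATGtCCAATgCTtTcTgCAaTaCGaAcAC
Tdpoz4: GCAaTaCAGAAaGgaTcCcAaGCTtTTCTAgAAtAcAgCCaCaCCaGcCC
Elsewhere the copies are closer: 36.4% of the 50-base windows of the Zscan4 coding sequence are the same in all 3 genes, against 17% for Tcstv and 0.0% for Tdpoz.

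Over the whole annotated transcripts, 14.5% of the 50-base words of Zscan4c, 50.4% of those of Zscan4d and 13.2% of those of Zscan4f occur in no other gene. Most of the rest are shared within the Zscan4 family alone, at 79.4%, 46.6% and 80.1%. Zscan4a, Zscan4-ps1, Zscan4-ps2 and Zscan4-ps3 matched no counted identifier, so no sum given here holds them. Of these, Zscan4-ps2 shares 71.4% of the words of Zscan4c and 77.1% of those of Zscan4f. Zfp352 (92.9%), Tmem92 (98.1%) and Tcstv1 (85.0%) are largely unique, and Tcstv3 is at 68.6%. Tdpoz1, Tdpoz3 and Tdpoz4 are at 55.6%, 33.8% and 58.8%, and their shared words lie in predicted genes under other names, such as Gm9117 and Gm9125 for Tdpoz1 and Gm4982 for Tdpoz3. How the deposited counts treated reads with several alignments is not given in the sources used here. The split of reads between copies is therefore uncertain, and sums over each family are given beside the single genes. The sums leave out genes of other names. Such genes hold 41.2% to 66.2% of the words of the Tdpoz markers, 13.5% of those of Tcstv1 and 28.6% of those of Tcstv3. The Tdpoz and Tcstv sums do not remove that part of the uncertainty.

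**Figure D1:**
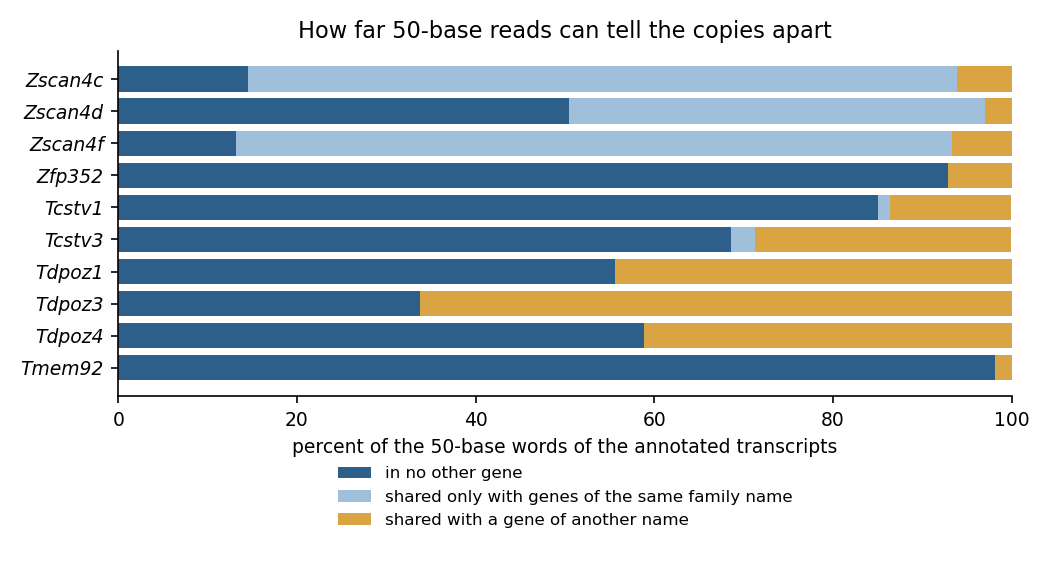
Percent of the 50-base words of each marker's annotated transcripts (GENCODE M21) that occur in no other gene (dark blue), only in genes of the same family name (light blue), or in a gene of another name (ochre). Zscan4c and Zscan4f have 14.5% and 13.2% unique words, while Tmem92 has 98.1%.

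The 250 bases before the start of Zscan4c and Zfp352 are shown as examples, 1 nearly the same among copies and 1 with a repeated word. Any link of these sequences to the levels of the markers was not tested. RefSeq (GRCm38.p6) promoter windows were at hand for 6 of the 10 genes: Zscan4c, Zscan4d, Zscan4f, Zfp352, Tdpoz1 and Tdpoz4. In the Zscan4c promoter (chr7:11005495-11005744, plus strand) capitals mark TATAAA, the core of the TATA box.
Zscan4c: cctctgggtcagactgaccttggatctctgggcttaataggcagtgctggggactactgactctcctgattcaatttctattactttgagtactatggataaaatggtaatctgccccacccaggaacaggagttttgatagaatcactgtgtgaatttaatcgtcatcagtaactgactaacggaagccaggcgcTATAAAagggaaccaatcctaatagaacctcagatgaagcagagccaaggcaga
In the Zfp352 promoter (chr4:90218570-90218819, plus strand) capitals mark the 9 copies of the 10-base word GACAACACAC.
Zfp352: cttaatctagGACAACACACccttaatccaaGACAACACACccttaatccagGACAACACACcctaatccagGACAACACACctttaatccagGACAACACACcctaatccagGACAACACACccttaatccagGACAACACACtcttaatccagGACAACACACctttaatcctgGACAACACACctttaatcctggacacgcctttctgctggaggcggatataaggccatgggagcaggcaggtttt
The 300-base windows of Zscan4d and Zscan4f, with 50 bases past the start, were compared with that of Zscan4c at the best shift without gaps. Zscan4d was 97.2% identical over 289 overlapping bases and Zscan4f 99.3% over 277. Each of these promoters holds TATAAA, which was in 13.6% of 32851 RefSeq promoters of 300 bases searched on both strands. None of the other 5 windows held any 10-base word more than 2 times. GACAACACAC was in 0.0183% of all promoters on the given strand, and 1 promoter held it 5 times or more. The repeat was noticed by reading the sequence, and Dux-type and GATA-type words that were also tried are not shown. These matches are descriptions, and nothing is read from them about binding.

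All 10 markers were lower in Smg6-deficient than in wild-type cells, by 2.54-fold (Tmem92) to 9.43-fold (Tdpoz1). Each passed the threshold of 0.05 in the quasi-likelihood test of edgeR, adjusted after Benjamini and Hochberg over 20895 genes. Lower calls made up 19.2% of all genes tested, and calls at least 2-fold lower, which all 10 markers were, made up 8.03%. The median log2 fold change (Smg6-deficient over wild type) was -2.38 over the markers and 0.008 over all tested genes. For each marker both Smg6-deficient libraries lay below both wild-type libraries in CPM, as for 35.9% of all tested genes. All 10 passed the filter on low counts, Tdpoz1 and Tdpoz4 through their wild-type libraries alone. The direction of these 2 was therefore set by the filter. The range and median above include them, and the largest fall of the other markers was 8.06-fold (Zfp352).

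**Figure D2:**
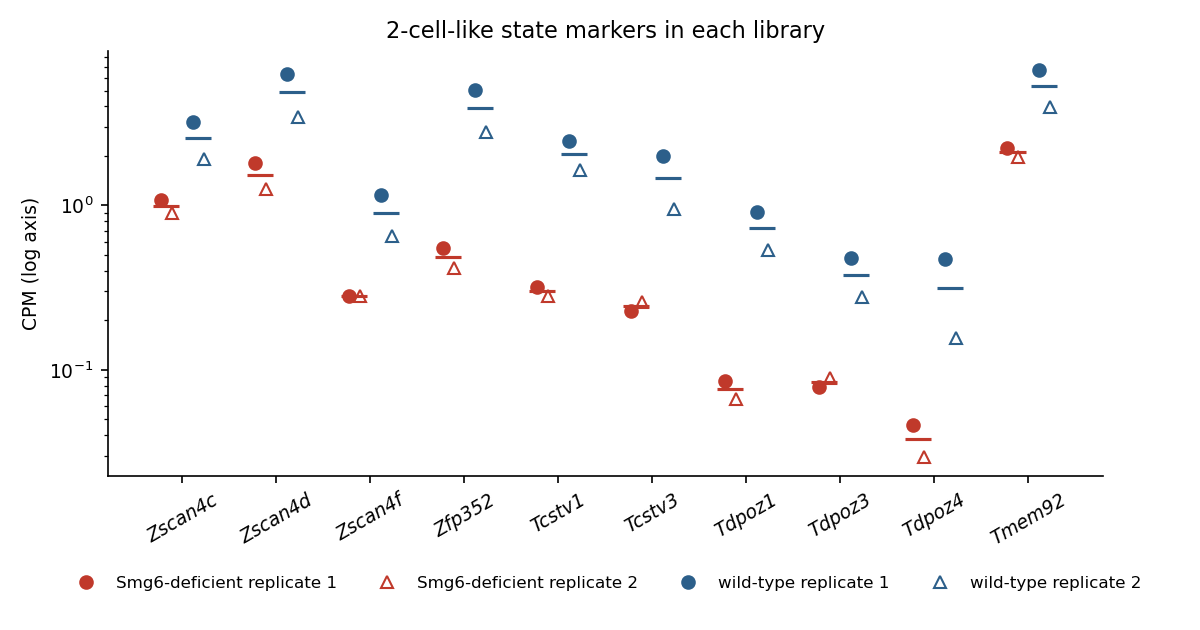
CPM (log axis) of each marker in each library, Smg6-deficient in red and wild type in blue, with circles for replicate 1, triangles for replicate 2 and bars for group means. Every red point lies below both blue points of its gene, and every blue triangle lies below its circle; CPM are not scaled to length, so heights compare libraries within a gene.

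The Zscan4 genes lie in a cluster on chromosome 7 and encode proteins with a SCAN domain and zinc fingers that are known for a part in telomere lengthening and genome stability of ES cells. Zscan4c (chr7:11005745-11010547, plus strand) was at 1.08 and 0.904 CPM in Smg6-deficient cells, against 3.21 and 1.91 CPM in wild-type cells. Zscan4d (chr7:11161374-11166159, minus) was at 1.8 and 1.26 CPM in Smg6-deficient cells and at 6.31 and 3.43 CPM in wild-type cells. Zscan4f (chr7:11397915-11402318, plus) had 0.282 and 0.281 CPM in Smg6-deficient cells and 1.16 and 0.65 CPM in wild-type cells. In all 3 genes wild-type replicate 1 was the highest library, and the groups did not overlap. The log2 fold change was -1.37 for Zscan4c (SE 0.28, edgeR adjusted p = 0.01), -1.67 for Zscan4d (SE 0.32, edgeR adjusted p = 0.0077) and -1.68 for Zscan4f (SE 0.34, edgeR adjusted p = 0.0095).

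Summed over these 3 genes, the family had 482 and 330 reads in the Smg6-deficient libraries, against 1495 and 802 reads in the wild-type libraries. Scaled to depth this was 3.16 and 2.44 CPM in Smg6-deficient cells and 10.7 and 5.99 CPM in wild-type cells. The sum was 2.97-fold lower in Smg6-deficient cells (log2 fold change -1.57, SE 0.29, edgeR adjusted p = 0.0061), in a table where 19.1% of rows were called lower. Zscan4d took the largest part of the family's reads in all 4 libraries, with 56.8% and 51.5% in Smg6-deficient cells and 59.1% and 57.2% in wild-type cells. Zscan4c took 34.2% and 37.0% in Smg6-deficient cells and 30% and 31.9% in wild-type cells. These shares are uncertain, because 50.4% of the words of Zscan4d are unique, against 14.5% for Zscan4c and 13.2% for Zscan4f. The exact 95% intervals of Zscan4c shares, which cover counting error only, ran from 30% to 38.7% in Smg6-deficient replicate 1 and from 28.7% to 35.3% in wild-type replicate 2, so they overlap. The 2 other Zscan4 identifiers in the table were also lower. Zscan4b had 46 and 29 reads in Smg6-deficient cells and 115 and 67 in wild-type cells (log2 fold change -1.35, SE 0.35, edgeR adjusted p = 0.023). Zscan4e, annotated by RefSeq as a pseudogene, had 106 and 99 reads in Smg6-deficient cells and 235 and 153 in wild-type cells (log2 fold change -0.98, SE 0.25, edgeR adjusted p = 0.022). By edgeR, Zscan4b no longer passed when Smg6-deficient replicate 2 was left out (adjusted p = 0.11), nor Zscan4e when Smg6-deficient replicate 1 (0.09) or 2 (0.064) was. With both added, the family sum had a log2 fold change of -1.46 (SE 0.26, edgeR adjusted p = 0.0059).

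Tcstv1 and Tcstv3, on chromosome 13, encode small proteins named for their variable presence at the 2-cell stage. Tcstv1 (chr13:119893388-119894785, minus strand) had 0.321 and 0.281 CPM in Smg6-deficient cells, against 2.47 and 1.64 CPM in wild-type cells. Tcstv3 (chr13:120316878-120318178, plus) had 0.229 and 0.259 CPM in Smg6-deficient cells, against 1.99 and 0.949 CPM in wild-type cells. For both genes the Smg6-deficient libraries lay close together and well below the lower wild-type library. The fall was 6.8-fold for Tcstv1 (log2 fold change -2.77 with SE 0.28, edgeR adjusted p = 0.0008) and 6.02-fold for Tcstv3 (-2.59, SE 0.4, edgeR adjusted p = 0.0034). The sum of both had 84 and 73 reads in Smg6-deficient cells and 625 and 347 reads in wild-type cells, a 6.46-fold fall (log2 fold change -2.69, SE 0.3, edgeR adjusted p = 0.001). Without wild-type replicate 1 the log2 fold change of Tcstv3 was -1.94 (edgeR adjusted p = 0.00058). Gm21818, a predicted gene that shares 19.0% of the 50-base words of Tcstv3 and was chosen for that, had 16 and 20 reads in Smg6-deficient cells and 92 and 43 in wild-type cells (log2 fold change -1.95, SE 0.45, edgeR adjusted p = 0.014). Without wild-type replicate 1 this log2 fold change was -1.34.

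The Tdpoz genes, clustered on chromosome 3, encode proteins that combine a TRAF domain with a POZ domain and are known from oocytes and early embryos. They were the least abundant markers. Tdpoz1 (chr3:93669333-93676310, minus strand) had 13 and 9 reads in the Smg6-deficient libraries, against 128 and 72 in the wild-type libraries. Tdpoz3 (chr3:93826020-93827117, plus) had 12 and 12 reads in Smg6-deficient cells, against 67 and 37 in wild-type cells. Tdpoz4 (chr3:93796398-93797510, plus) had 7 and 4 reads in Smg6-deficient cells, against 66 and 21 in wild-type cells. The upper ends of the exact 95% Poisson intervals in Smg6-deficient cells were 22.2 reads for Tdpoz1, 21 for Tdpoz3 and 14.4 for Tdpoz4. These intervals leave out the counting error of the wild-type libraries. Tdpoz1 and Tdpoz4 passed the filter through their wild-type libraries alone, so their low Smg6-deficient counts are no support for a fall. The log2 fold change was -3.24 for Tdpoz1 (SE 0.41, edgeR adjusted p = 0.0016), -2.17 for Tdpoz3 (SE 0.42, edgeR adjusted p = 0.0076) and -3.02 for Tdpoz4 (SE 0.67, edgeR adjusted p = 0.013). Tdpoz4 had the widest standard error of the 10 markers, and its log2 fold change was -2.0 without wild-type replicate 1 and -3.62 without wild-type replicate 2 (edgeR adjusted p = 0.023 and 0.00038).

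Summed, the Tdpoz genes had 32 and 25 reads in Smg6-deficient cells and 261 and 130 in wild-type cells, a 7.15-fold fall (log2 fold change -2.84, SE 0.38, edgeR adjusted p = 0.002). Tdpoz3 took 37.5% and 48.0% of these reads in Smg6-deficient cells, against 25.7% and 28.5% in wild-type cells. The exact 95% intervals for counting error overlap: 21.1% to 56.3% and 27.8% to 68.7%, against 20.5% to 31.4% and 20.9% to 37%. These shares are also uncertain because of the 66.2% of its words that Tdpoz3 shares with Gm4982. Gm4982 and Gm9117 were counted at 0 in all 4 libraries, as was Tdpoz5, the remaining Tdpoz identifier. Gm4858, which RefSeq lists under the synonym Tdpoz8 and which shares 23.4% of the words of Tdpoz4, was chosen for that after the sequences were compared. It had 17 and 25 reads in Smg6-deficient cells, against 196 and 91 in wild-type cells (log2 fold change -2.82, SE 0.45, edgeR adjusted p = 0.0039). Without wild-type replicate 1 this log2 fold change was -2.19.

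Zfp352, whose promoter repeat is printed above, encodes a zinc finger protein whose transcript is a marker of the 2-cell embryo, and most of its 50-base words are unique. At chr4:90218820-90225702 (plus strand), it was counted at 0.551 and 0.415 CPM in Smg6-deficient cells, against 5.04 and 2.78 CPM in wild-type cells. The 84 and 56 reads in Smg6-deficient cells and 705 and 372 reads in wild-type cells gave an 8.06-fold fall (log2 fold change -3.01, SE 0.34, edgeR adjusted p = 0.0011). Tmem92, a gene for a single-pass membrane protein at chr11:94777217-94782703 (minus), had 2.24 and 1.96 CPM in Smg6-deficient cells, against 6.66 and 3.98 CPM in wild-type cells. It fell 2.54-fold (log2 fold change -1.34, SE 0.26, edgeR adjusted p = 0.0076), the smallest change of the 10. In both genes the lower wild-type library still lay above the higher Smg6-deficient one. Tmem92 is the only one of the 10 with an annotated nonsense-mediated decay transcript, 1 of its 3, and that transcript was not separated from the others in a gene count.

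**Figure D3:**
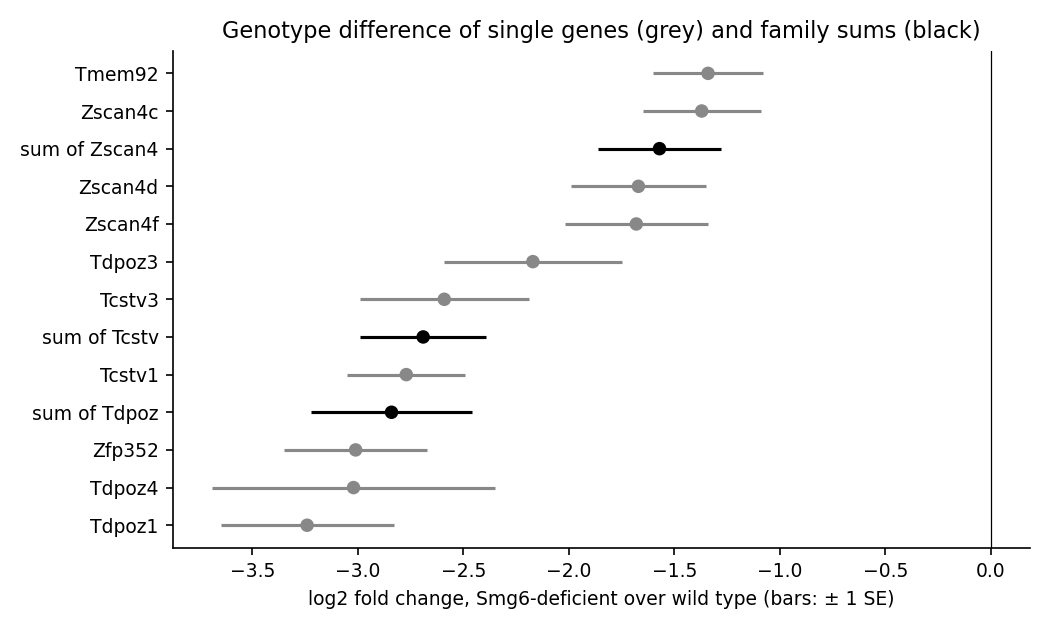
Log2 fold change, Smg6-deficient over wild type (x axis, bars ± 1 SE), of each marker (grey) and of each family's summed counts (black), by edgeR. All values lie left of 0; Tmem92, Zscan4c and the Zscan4 sum (-1.57) are nearest to it, and the Tcstv sum (-2.69) and Tdpoz sum (-2.84) lie farther left.

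The calls of the markers rested on counts. The deposited RPKM values, which have 2 decimals, were also tested by limma-trend. On the log2(RPKM + 0.1) scale 3 of the 10 markers passed, and on the log2(RPKM + 1) scale 1 did. Lower calls over all genes numbered 2090 and 2195 on these scales, against 4004 by edgeR. The number of genes tested on the RPKM scales is not given here, so the share is not known. Tcstv1 passed on both scales (adjusted p = 0.036 and 0.041), Zfp352 and Tdpoz1 on the first alone (0.046 and 0.048), and the other adjusted p-values lay between 0.061 and 0.2.

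Levels can be set side by side between genes only per length, for which the deposited RPKM were used (mean ± SD, n = 2). In Smg6-deficient cells the highest level was that of Tmem92, at 0.805 ± 0.106 RPKM, followed by Zscan4d at 0.525 ± 0.148, Tcstv3 at 0.4 ± 0.0141 and Zscan4c at 0.36 ± 0.0566 RPKM. Tcstv1 (0.2 ± 0.0283 RPKM) and Zfp352 (0.18 ± 0.0424 RPKM) came next, then Zscan4f (0.095 ± 0.00707 RPKM), Tdpoz3 (0.065 ± 0.00707 RPKM), Tdpoz4 (0.03 ± 0.0141 RPKM) and Tdpoz1 (0.025 ± 0.00707 RPKM). Neighbours whose ranges overlapped in Smg6-deficient cells were Tcstv3 and Zscan4c, Tcstv1 and Zfp352, and Tdpoz4 and Tdpoz1. In wild-type cells Tcstv3 was first at 2.51 ± 1.36 RPKM, followed by Tmem92 at 2.11 ± 0.834, Zscan4d at 1.74 ± 0.799, Zfp352 at 1.5 ± 0.672, Tcstv1 at 1.39 ± 0.453 and Zscan4c at 0.965 ± 0.389 RPKM. Zscan4f (0.32 ± 0.141 RPKM), Tdpoz3 (0.3 ± 0.127 RPKM), Tdpoz1 (0.28 ± 0.113 RPKM) and Tdpoz4 (0.25 ± 0.184 RPKM) were lower. The wild-type ranges of neighbours in this order overlapped except between Zscan4c and Zscan4f, and every marker was higher in replicate 1. Within each wild-type library the order from Tcstv3 to Zscan4c held, except that Tcstv1 (1.07 RPKM) lay above Zfp352 (1.02) in replicate 2. From Zscan4f to Tdpoz4 it held except that Tdpoz4 (0.38 RPKM) lay above Tdpoz1 (0.36) in replicate 1. This order rests on 2 libraries. The places of the Zscan4 and Tdpoz copies in both genotypes also depend on the uncertain split of reads between copies.

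Ratios of markers within a library need no scaling to depth. For every 100 reads of the Zscan4 sum there were 17.4 and 22.1 reads of the Tcstv sum in Smg6-deficient cells, against 41.8 and 43.3 in wild-type cells. The Tdpoz sum gave 6.64 and 7.58 reads in Smg6-deficient cells, against 17.5 and 16.2 in wild-type cells. Zfp352 gave 17.4 and 17 reads in Smg6-deficient cells, against 47.2 and 46.4 in wild-type cells. For these 3 the replicates of a genotype lay close together, the genotypes did not overlap, and no exact 95% interval of a Smg6-deficient library met one of a wild-type library. Tmem92 gave 70.7 and 80.0 reads in Smg6-deficient cells, against 62.3 and 66.5 in wild-type cells, with intervals that overlapped except those of Smg6-deficient replicate 2 and wild-type replicate 1, which were 67.8 to 94.3 and 57.4 to 67.7. With 2 libraries against 2, the exact two-sided permutation test gave p = 0.333 for each of the 4 ratios, the smallest p it can give, so none can pass a threshold of 0.05.

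**Figure D4:**
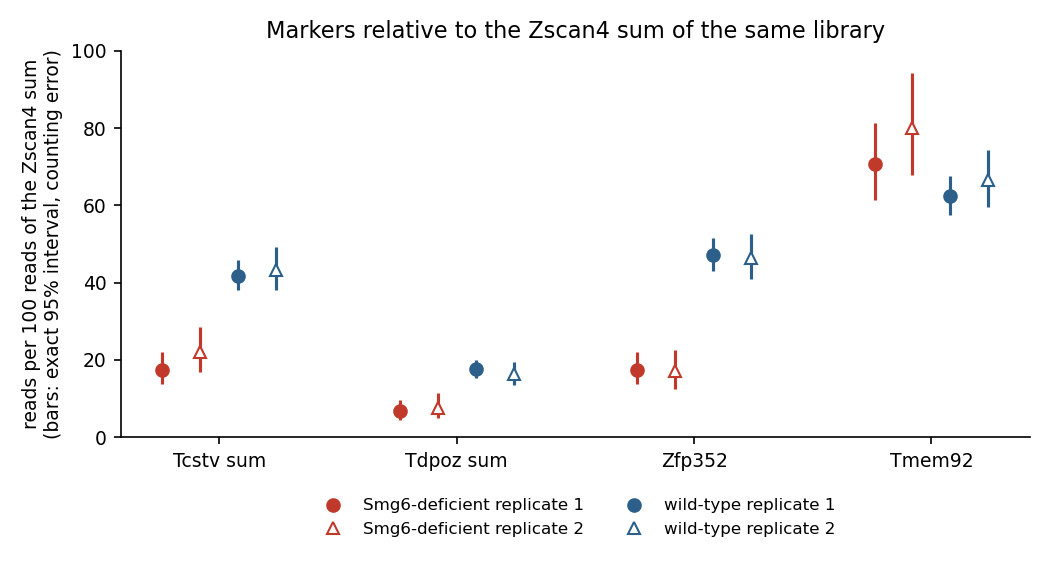
Reads of the Tcstv sum, the Tdpoz sum, Zfp352 and Tmem92 for every 100 reads of the Zscan4 sum in the same library (y axis), Smg6-deficient in red and wild type in blue, with exact 95% intervals for counting error. The red points of the first 3 items lie between 6.64 and 22.1, each below its blue points, while those of Tmem92 are at 70.7 and 80.0, above its blue points.

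The replicates of one genotype differed in the markers too. In Smg6-deficient cells the log2 ratio of replicate 2 over replicate 1 ran from -0.63 to 0.18 over the 10 markers, with a median of -0.23. In wild-type cells it ran from -1.59 (Tdpoz4) to -0.59 (Tcstv1), with a median of -0.81, so that replicate 1 was the higher library for every marker. A wild-type ratio below -0.5 was found for 10 of 10 markers and for 6.51% of all tested genes. Among the cell-state lists read below, it was found for 4 of 12 fibroblast, 3 of 14 endoderm and 1 of 14 pluripotency genes. Among all tested genes within the markers' range of mean CPM, the wild-type ratio had a median of 0.09 and a 5th to 95th percentile range of -0.78 to 1.08. Copies may share reads, so the 10 markers are not 10 separate readings of this difference.

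**Figure D5:**
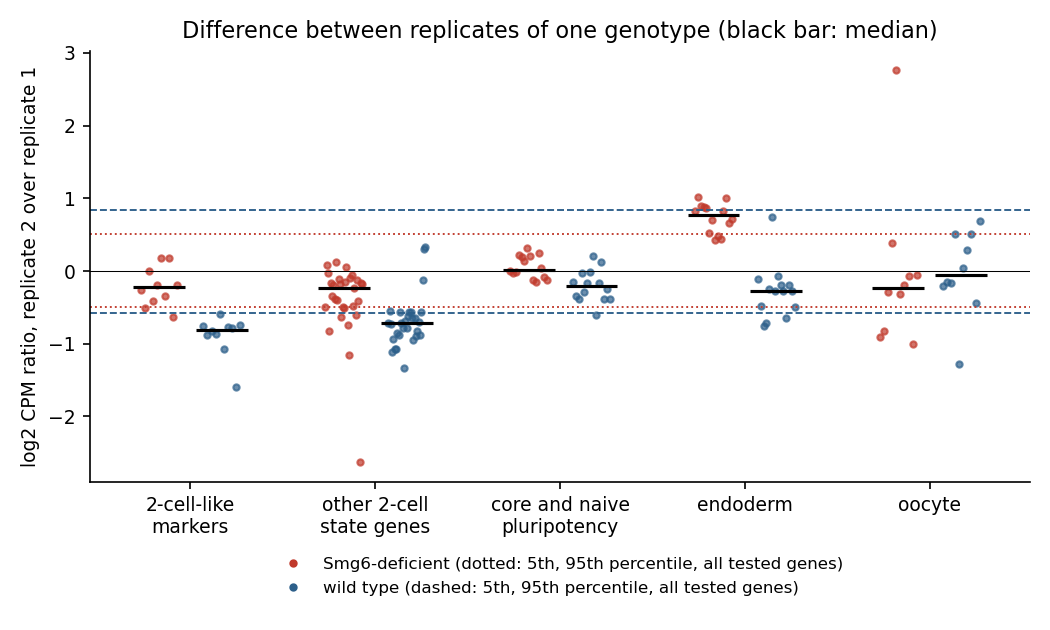
Log2 CPM ratio of replicate 2 over replicate 1 (y axis) within Smg6-deficient (red) and wild-type (blue) cells, 1 point per tested gene, with medians as black bars and the 5th and 95th percentiles of all tested genes as dotted and dashed lines. All 10 blue points of the 2-cell-like markers lie below -0.5 (median -0.81), as do 26 of 29 of the other 2-cell-state genes. The count is 1 of 14 for the pluripotency genes, 3 of 14 for the endoderm genes and 1 of 10 for the oocyte genes. The red points of the endoderm genes lie above 0.

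A list of 44 other genes of the 2-cell state was read beside the markers, and 36 of its entries matched an identifier. Of the 29 that passed the filter, 28 were lower in Smg6-deficient cells, 26 of them at least 2-fold, and 0 were higher. The median of the log2 fold changes of these 29 was -2.07. Over all tested genes, lower calls made up 19.2% and calls at least 2-fold lower 8.03%. Of the 28, 4 passed the filter through their wild-type libraries alone, so that their direction was set by it: AF067063, Rfpl4b, Obox6 and B020031M17Rik. The 1 tested gene not called was Zfp750 (-0.40, edgeR adjusted p = 0.061), and 2 of the 7 untested entries were at 0 in every library. In wild-type cells 26 of the 29 had a replicate ratio below -0.5, with a median of -0.72. On the RPKM scales named above, 2 and 6 genes of that list passed as lower, with a pseudocount of 1 and 0.1. Over all genes 2195 and 2090 passed as lower on these scales, and the 19.2% is the share by edgeR.

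The 5 genes of that list with the smallest adjusted p were the predicted genes Gm5662, B020031M17Rik and Gm13119, the AF067061 transcript and Ubtfl1, which encodes an HMG-box protein related to the nucleolar factor UBTF and is known from early embryos. Gm5662 had 94 and 77 reads in Smg6-deficient cells, against 584 and 339 in wild-type cells (log2 fold change -2.50, edgeR adjusted p = 0.0011). Ubtfl1 had 31 and 18 reads in Smg6-deficient cells, against 188 and 111 in wild-type cells (log2 fold change -2.68, edgeR adjusted p = 0.0021). For both genes the groups did not overlap. The log2 fold changes of AF067061 and Gm13119 were -2.46 and -1.95. B020031M17Rik had 15 and 6 reads in Smg6-deficient cells, against 166 and 101 in wild-type cells, and its log2 fold change of -3.73 was -4.41 without Smg6-deficient replicate 1. The ubiquitin peptidase genes Usp17la, Usp17lb, Usp17lc, Usp17ld and Usp17le, a family of similar copies, had log2 fold changes of -1.77, -1.87, -2.07, -2.0 and -1.23.

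Of 7 tested activators of the 2-cell state, 4 were lower and 0 higher, where lower calls made up 19.2% of all tested genes. Duxf3, the gene of the Dux factor itself, had 47 and 30 reads in Smg6-deficient cells, against 98 and 91 reads in wild-type cells. It fell 2.59-fold (log2 fold change -1.37, SE 0.28, edgeR adjusted p = 0.0097). Leaving out Smg6-deficient replicate 2 ended the call (log2 fold change -1.15, edgeR adjusted p = 0.081). Its wild-type replicates lay close together, with a log2 ratio of -0.04, unlike those of the markers. Duxf3 has 53.0% unique 50-base words, and its count is uncertain to that extent: AW822073, which shares 32.5% of its words and was chosen for that, had 19 and 15 reads in Smg6-deficient cells and 63 and 34 in wild-type cells (log2 fold change -1.57, edgeR adjusted p = 0.022). Its call ended when Smg6-deficient replicate 1 (edgeR adjusted p = 0.072), Smg6-deficient replicate 2 (0.095) or wild-type replicate 1 (0.059) was left out.

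Dppa3, a maternal factor that protects DNA methylation in the early embryo, was at 5.64 and 4.93 CPM in Smg6-deficient cells, against 20.3 and 17.5 CPM in wild-type cells (log2 fold change -1.84, SE 0.13, edgeR adjusted p = 0.00029). Tbx3, a T-box factor of the naive state, was at 84.3 and 109 CPM in Smg6-deficient cells, against 260 and 220 CPM in wild-type cells (log2 fold change -1.31, edgeR adjusted p = 0.00097). Gata2, a GATA factor that can activate MERVL, was 2.19-fold lower (edgeR adjusted p = 0.0013). Dppa2 and Dppa4, partner proteins that act upstream of Dux, did not pass, with log2 fold changes of 0.14 (SE 0.12, edgeR adjusted p = 0.41) and 0.16 (SE 0.091, edgeR adjusted p = 0.19). Dppa2 was at 53.0 and 54.8 CPM in Smg6-deficient cells and 55.0 and 43.0 CPM in wild-type cells, so the groups overlapped, and its log2 fold change was 0.34 without wild-type replicate 1 (edgeR adjusted p = 0.0084) and -0.05 without wild-type replicate 2 (0.65). Dppa4 passed without wild-type replicate 1 (0.27, edgeR adjusted p = 0.024), and the higher activators then numbered 3.

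Of 29 factors reported to hold the 2-cell state in check, all tested, Smg6-deficient cells had 10 at a higher level and 2 at a lower one, with a median log2 fold change of 0.16. Higher calls made up 20.5% of all tested genes and lower calls 19.2%. Ehmt2, a histone H3 lysine methyltransferase, was at 202 and 218 CPM in Smg6-deficient cells, against 102 and 105 CPM in wild-type cells (log2 fold change 1.02, edgeR adjusted p = 0.00036). Myc, a transcription factor better known for growth control, was at 74.6 and 75.5 CPM in Smg6-deficient cells, against 31.3 and 21 CPM in wild-type cells (log2 fold change 1.52, edgeR adjusted p = 0.0012). Rif1, a telomere and replication timing protein, Ehmt1, the partner of Ehmt2, and Morc3, an ATPase of silent chromatin, rose by 0.59, 0.51 and 0.49 on the log2 scale. The lower genes were Rnf2, a Polycomb ubiquitin ligase (-0.55, edgeR adjusted p = 0.0042), and Zfp42, also called Rex1 (-0.49, edgeR adjusted p = 0.01). The number of lower repressors was 4 with library size alone as the scaling, and Zfp42 did not pass by edgeR when Smg6-deficient replicate 1 was left out (adjusted p = 0.076).

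Markers of other cell states moved between the same libraries. Over all tested genes, lower calls made up 19.2% and higher calls 20.5%. Smg6-deficient cells had 13 of 14 endoderm genes at a higher level and 1 at a lower one, and their summed level was 2600 and 3870 CPM in Smg6-deficient cells, against 735 and 647 CPM in wild-type cells. The endoderm genes also differed between the Smg6-deficient replicates: Gata6 was at 25.7 and 52.0 CPM and Sox17 at 20.2 and 37.3 CPM in Smg6-deficient cells, against 2.86 and 2.05 CPM (Gata6) and 1.6 and 0.949 CPM (Sox17) in wild-type cells. Of 14 pluripotency genes 9 were lower and 2 higher, with a summed level of 3100 and 3180 CPM in Smg6-deficient cells and 4950 and 4380 CPM in wild-type cells. Of 12 fibroblast genes, read for feeder cells, 4 were higher and 0 lower, and the sum was 2360 and 2210 CPM in Smg6-deficient cells and 2040 and 1480 CPM in wild-type cells. No defining gene of the endoderm, pluripotency or fibroblast lists was at 0. The summed level of the 10 markers was 6.71 and 5.54 CPM in Smg6-deficient cells and 28.7 and 16.3 CPM in wild-type cells. The part of these cell-state differences in the fall of the markers was not tested.

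Among the 20885 other tested genes, the 8 whose centred log2 CPM profile over the 4 libraries lay nearest to the mean profile of the markers were Abcb5, Gm13964, Pramef6, Alox12e, Gm8300, BB287469, Usp17lc and Spz1. Their Euclidean distances ran from 0.0436 (Abcb5) to 0.185 (Spz1) on the log2 scale, against 0.313 to 0.875 for the single markers. Pramef6, Gm8300, Usp17lc and Spz1 are 4 of the 29 tested genes of the 2-cell list. Abcb5, a transporter gene on chromosome 12, had 0.302 and 0.259 CPM in Smg6-deficient cells, against 1.76 and 0.971 CPM in wild-type cells, and like the markers it was highest in wild-type replicate 1. A profile of 4 libraries is set mostly by the genotype difference and by the difference between the wild-type libraries.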

How the data were processed

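RNA of 4 mouse ES cell samples was made into libraries with a TruSeq v2 kit, which does not mark strand, and read as single 50-base reads, per the labels' protocols. The submitters' processing notes name TopHat2 2.0.9 and mm10. For the gene counter, the annotation release and the handling of multi-mapping reads, the tool and setting are not given in the sources used. For each Ensembl identifier the authors deposited 1 read count and 1 RPKM value.

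Symbols and transcripts came from GENCODE M21 (GRCm38) and matched 95.2% of identifiers. The deposited counts were filtered with filterByExpr (minimum count 10), TMM-scaled and tested over the whole table with edgeR 4.0.16 under R 4.3.3, using its quasi-likelihood test on genotype and Benjamini-Hochberg adjustment (threshold 0.05). Family sums replaced their members in a second table of 20890 rows. SE was taken as the size of the log2 fold change over the root of the F statistic. CPM use TMM-scaled library sizes. Replicates differed beyond sampling error, with a chi-square of 32.1 (Smg6-deficient) and 56.7 (wild type) for each degree of freedom. The procedure was tested on simulated data. Intervals cover counting error only, and reads without molecular identifiers are not independent molecules. Alternatives used other scalings and filters, DESeq2 1.42.0, limma 3.58.1 (voom, and trend on log2 RPKM), the replicate block and leaving out each library.

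The markers and gene lists were chosen with earlier results of these data known. Named genes were all markers, other identifiers of the 3 families, up to 5 genes with the smallest adjusted p in each direction from each 2-cell-state list, Duxf3, Dppa2, Dppa4, the 8 nearest profiles and Smg6; Usp17l genes, Zfp750, cell-state examples and sequence partners were chosen after their values or sequences were seen.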

Additional observations from a re-analysis of the deposited data

How the results depend on the processing

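Under 15 alternatives the markers gave 148 log2 fold changes, of which 0 changed sign, 132 kept their side of the threshold and 16 lost the call, all 16 on the RPKM scales. With a pseudocount of 1 and of 0.1 on RPKM, limma-trend called 1 and 3 markers and 2 and 6 other 2-cell-state genes lower. It called 1 and 1 repressors lower, and 5 and 4 repressors higher. Over all genes it called 2195 and 2090 lower. On those scales the Zscan4 sum was -0.99 and -1.48 (adjusted p = 0.1 and 0.095) and the Tdpoz sum -0.69 and -2.0 (0.092 and 0.063), while the Tcstv sum was -1.56 with a pseudocount of 1 (0.055) and passed with 0.1 (0.047). The Zscan4 sum over the 5 counted identifiers of the family name was -1.01 and -1.38 (0.098 and 0.093). The cause was not tested. A filter of 50 counts in 2 libraries left 8 markers to test, without Tdpoz3 and Tdpoz4, and all 8 were lower. With this filter 4053 genes were called lower over the whole table. Of these 8, Zscan4f, Tcstv1, Tcstv3 and Tdpoz1 reached 50 counts in neither Smg6-deficient library. Their direction was therefore set by that filter. Repressors called lower numbered 4 with library size alone, with TMM on autosomal genes and with that filter.

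Leaving out each library in turn changed the sign of no marker's log2 fold change. In the main fit the filter set the direction of Tdpoz1 and Tdpoz4. The Zscan4 sum ran from -1.95 to -1.09, the Tcstv sum from -3.05 to -2.24 and the Tdpoz sum from -3.25 to -2.29, lowest in size without wild-type replicate 1. Lower repressors ran from 1 to 4 and higher activators from 0 to 3. Of 506 values of other named genes 51 lost and 5 gained a call (3 of the 5 are Smg6), and 1 changed sign (Dppa2, 0.34 without wild-type replicate 1 and -0.05 without wild-type replicate 2). A genotype reduced to 1 library was assumed to vary like the other one.

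The libraries share replicate numbers 1 and 2 across genotypes, and nothing in the labels pairs them. With the replicate number as a block, 10 of 10 markers were lower, and the Zscan4, Tcstv and Tdpoz sums were -1.53, -2.65 and -2.80. Over all genes 4613 were called lower with this block, against 4004 without it. Low read numbers limit Tdpoz4 most, at 7 and 4 reads in Smg6-deficient cells and 66 and 21 in wild-type cells.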

Other observations

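Genes of the oocyte, several of which are also transcribed in the early embryo, were read as a further list. Of 10 tested, 5 were lower in Smg6-deficient cells and 0 were higher, where lower calls made up 19.2% of all tested genes. The median of the log2 fold changes was -1.72, which includes 4 genes that passed the filter through their wild-type libraries alone. Nlrp14, a maternal NLR protein gene, was at 2.18 and 1.74 CPM in Smg6-deficient cells, against 10.1 and 10.4 CPM in wild-type cells (log2 fold change -2.39, SE 0.16, edgeR adjusted p = 0.00025). Figla, a transcription factor that activates zona pellucida genes, was at 0.249 and 0.237 CPM in Smg6-deficient cells and 0.979 and 1.4 CPM in wild-type cells (-2.28, edgeR adjusted p = 0.0016). Oas1d, an oocyte member of the oligoadenylate synthetase family, was at 0.184 and 0.178 CPM in Smg6-deficient cells and 0.907 and 1.46 CPM in wild-type cells (-2.71, edgeR adjusted p = 0.0014). The groups of these 3 genes did not overlap. The other 2 lower genes, Zp2 and Bmp15, passed the filter on low counts through their wild-type libraries alone, so that their direction was set by it. Zp1 and Mos, which were not called, passed it in the same way. In wild-type cells the log2 ratio of replicate 2 over replicate 1 was 0.69 for Oas1d, 0.51 for Figla, 0.04 for Nlrp14, -0.15 for Zp2 and -1.28 for Bmp15, with a median of -0.06 over the 10 tested genes. The whole list summed to 8.8 and 7.52 CPM in Smg6-deficient cells and 17.2 and 18.1 CPM in wild-type cells, and Oosp1 was at 0 in every library. A wild-type replicate ratio below -0.5 was found for 1 of the 10 tested oocyte genes. Zp3 and Gdf9, 2 further oocyte genes, did not pass, at log2 fold changes of 0.39 and 0.41 (edgeR adjusted p = 0.11 and 0.28).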
